A study of Mus musculus with 4 samples.

Results

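Nefh, Nefm, Nefl, Prph and Ina are the genes of the intermediate filaments that neurons build, and they were read here in single cells of mouse dorsal root ganglia (DRG), the ganglia beside the spinal cord that hold the cell bodies of sensory neurons. They were chosen by name, 5 of the 32285 genes that all count tables share. The question was how their messenger RNA is divided between large and small neurons, what cell barcodes with few molecules hold of it, and how much of it turns up in cells that are not neurons.

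The mice carry an altered receptor kinase of sensory neurons that the compound 1NMPP1 can block, in the treated and the control animals alike, and the growth plate at the end of the femur had been injured. The 1NMPP1 animals were given the compound into the abdomen at 17 µg per g of body weight, 48 h and again 2 h ahead of the operation, and then drank it at 40 µM. Control animals received the DMSO vehicle. Lumbar ganglia of the injected side were taken 7 days after the injury, cut up, digested with papain, collagenase and dispase, and run as 10x Genomics droplet libraries, which count molecules by unique molecular identifiers (UMIs). Each group is 1 library, and the sources used here do not give the number, age or sex of its animals. No difference between the libraries therefore has a replicate check, and no p-value is given. Intervals are at 95% and cover counting error only.

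The 1NMPP1 library held 32791945 UMIs in 2612 barcodes and the vehicle library 57303894 UMIs in 3675 barcodes. After filtering, 2146 cells of the 1NMPP1 library remained, with a median of 7001 UMIs, and 2830 cells of the vehicle library, with a median of 10454 UMIs. Sensory neuron-like cells, named from 15 markers among which none of the filament genes stands, were 109 in the 1NMPP1 library and 401 in the vehicle library, 5.08% and 14.2% of the kept cells. Of these, 55 and 112 had at least 3000 UMIs and are called deep, and 54 and 289 had fewer and are called shallow. The libraries also differed in sex calls. A cell was called male with a Y-linked UMI and no UMI of the X-linked gene Xist, and female in the reverse case. Called male were 17.3% of kept cells in the 1NMPP1 library and 45.6% in the vehicle library. Called female were 47.6% and 20.1%, and the rest had no call. Both libraries shared 4 barcodes.

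Neurofilaments of peripheral axons are copolymers. NEFL, the light subunit, forms the core, NEFM and NEFH add long side arms that are heavily phosphorylated in axons, and the amount of neurofilament sets the calibre of myelinated fibres. Peripherin, the product of Prph, and alpha-internexin, the product of Ina, join the same network, peripherin mainly in the peripheral nervous system and alpha-internexin mainly in developing and central neurons. In ganglia the heavy subunit is a textbook label of large neurons with myelinated A fibres, and peripherin one of small neurons with unmyelinated C fibres.

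On the GRCm38 build (GENCODE vM21), Nefh lies at chr11:4938754-4948064 on the minus strand with 4 exons. Nefl lies at chr14:68083863-68089095 on the plus strand with 4 exons. Its neighbour Nefm lies at chr14:68082590-68124846 on the minus strand and has 2 coding transcripts, a short one of 3 exons and a long one of 4 exons that spans Nefl. On the opposite strand, 1108 of the 3380 exon bases of Nefl are also exon bases of that long Nefm transcript. Prph lies at chr15:99055174-99058978 on the plus strand, and Ina at chr19:47014698-47025327 on the plus strand with 3 exons, 456 of whose 3240 exon bases overlap Nt5c2 on the opposite strand. The sources used here do not say whether counting used strand, so molecules of Nefl and Nefm, or of Ina and Nt5c2, could be mixed where they overlap. The 31-base words of the last 500 bases of each coding transcript were searched for in other genes. Reads would mostly fall there with a 3′ kit, but the sources used here do not name the kit. Of these words, 0 of Nefh, Nefl, Prph and Ina occurred in another gene, and 9 of 926 words of Nefm did.

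The 250 bases before the start sites of Prph and Ina are printed because these 2 genes were divided between neurons in different ways, and because RefSeq promoters for build GRCm38.p6 held them. Capitals mark a TATA box core (TATAAA) or a GC box (GGGCGG, here as CCGCCC on the other strand), searched on both strands together with CCAAT. The sequences run 5′ to 3′ on the plus strand, Prph from chr15:99054924-99055173 and Ina from chr19:47014431-47014680.
Prph: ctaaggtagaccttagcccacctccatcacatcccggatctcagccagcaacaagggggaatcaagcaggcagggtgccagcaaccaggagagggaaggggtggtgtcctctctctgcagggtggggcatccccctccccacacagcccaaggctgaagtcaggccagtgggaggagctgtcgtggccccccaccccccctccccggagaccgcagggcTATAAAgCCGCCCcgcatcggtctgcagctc
Ina: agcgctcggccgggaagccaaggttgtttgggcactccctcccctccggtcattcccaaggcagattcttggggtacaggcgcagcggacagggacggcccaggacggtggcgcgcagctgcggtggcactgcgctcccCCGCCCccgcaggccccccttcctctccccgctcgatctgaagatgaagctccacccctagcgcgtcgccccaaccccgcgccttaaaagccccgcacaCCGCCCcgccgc

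Distances count from the RefSeq start site, which for Prph is also the gene start given above and for Ina lies before it. The Prph stretch had TATAAA beginning 31 bases before the start site and a GC box right after it, 24 bases before, and 65.2% of its bases were G or C. The Ina stretch had no TATAAA but GC boxes 111 and 12 bases before the start site, with 70.8% G or C. CCAAT was in neither window. Of 32851 promoter windows of the same length, 12.4% held TATAAA, 32.7% a GC box and 33.8% CCAAT, on either strand. A match describes the letters and is not evidence of a bound factor.

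Deep neurons were grouped by clustering without the 5 filament genes, and the groups were named from markers among which none of them stands. Large A-fibre-like neurons, called large here although no cell size was measured, were a single cluster of 6 cells in the 1NMPP1 library and 10 in the vehicle library, with medians of 217786 and 265584 UMIs. Pvalb, a calcium-binding protein of proprioceptive neurons, Thy1 and Slc17a7, the vesicular glutamate transporter, led it. Its 15 A-fibre markers summed to 4006 CPM (UMIs of the gene scaled to 1e6 UMIs of the group) in the 1NMPP1 library and 3379 CPM in the vehicle library, against 522 and 679 CPM in small neurons. Some of its cells had few UMIs, 3854 in the 1NMPP1 library and 5599 and 6239 in the vehicle library, so their single-cell values rest on few molecules. Small neurons, 37 and 86 cells, were the peptidergic-like (15 and 47), non-peptidergic-like (7 and 25) and C-low-threshold mechanoreceptor-like (15 and 14) clusters. Of the 25 non-peptidergic-like vehicle cells, 18 formed a cluster with a median of 3677.5 UMIs, called the hemoglobin-led cluster. It had no cell of the 1NMPP1 library, 4 hemoglobin genes against 1 non-peptidergic marker among its 10 leading genes, and 13829 CPM of erythroid markers, so its name is uncertain. Values of small vehicle neurons include it, unless said otherwise. Non-peptidergic-like neurons are compared below by their other cluster alone, of 7 and 7 cells. Clusters of 7 and 8 cells led by S100a16, Tafa1 and Ngef, and of 5 and 8 cells led by Frmpd4 and Dlg2, matched no class clearly and stayed unnamed.

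The neurofilament triplet stood far higher in large than in small neurons of both libraries, and peripherin stood lower. Nefh, the heavy subunit, showed the widest gap of the 5 genes, then Nefm, the medium subunit, then Nefl. Large neurons held 4 of the 5 genes above the level of small neurons by over 2-fold in the 1NMPP1 library and 3 of 5 in the vehicle library, where 12.2% of 12368 and 12.2% of 13709 genes with at least 20 UMIs did so. Prph was the member lower in large neurons, just short of 2-fold in the 1NMPP1 library and just past it in the vehicle library, where it was short of it (-0.998) without the hemoglobin-led cluster. Of all genes, 17.3% in the 1NMPP1 library and 23.5% in the vehicle library were lower by at least 2-fold.

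In the 1NMPP1 library, Nefh ran from 1402 over a median of 2353 to 4826 CPM per large neuron, against 5.62, 75.6 and 2178 CPM per small neuron. In the vehicle library the lowest, median and highest Nefh values were 853, 2987 and 14213 CPM in large neurons, against 0, 72.5 and 1748 CPM in small neurons. In each library a single small neuron reached the lowest large neuron. Above the highest small neuron lay 3 of 6 and 9 of 10 large neurons. The S100a16 cluster, in neither group, reached 1328 and 1298 CPM, in the vehicle library above the lowest large neuron. Summed over cells, Nefh came to 2785 and 4486 CPM in large neurons, 1NMPP1 library and vehicle library, against 161 and 163 CPM in small neurons. The log2 ratio of large over small was 4.11 (interval 4.01 to 4.21) in the 1NMPP1 library and 4.78 (4.72 to 4.85) in the vehicle library.

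Nefm had 1685, 2353 and 7045 CPM as lowest, median and highest large neuron of the 1NMPP1 library, against 78.6, 347 and 1640 CPM in small neurons. The vehicle library had 1298, 4235 and 15154 CPM in large neurons, against 0, 466 and 2582 CPM in small neurons. No small neuron of the 1NMPP1 library and 4 of 86 in the vehicle library reached the lowest large neuron, 2 of 68 without the hemoglobin-led cluster. The log2 ratios were 3.31 (3.24 to 3.38) and 3.53 (3.49 to 3.58).

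Nefl, the subunit that all neurofilaments need, was less one-sided, and small neurons held much of it too. Its lowest, median and highest values were 2372, 3649 and 9983 CPM in large neurons of the 1NMPP1 library, against 631, 1168 and 3906 CPM in small neurons. They were 1989, 10882 and 19319 CPM in large neurons of the vehicle library, against 98.0, 1649 and 5395 CPM in small neurons. The groups overlapped, with 4 of 37 and 31 of 86 small neurons at or above the lowest large neuron, and 14 of 68 in the vehicle library without the hemoglobin-led cluster. The log2 ratios were 1.83 (1.79 to 1.88) and 2.58 (2.55 to 2.60).

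Prph ran the other way. Large neurons had 778, 1510 and 2260 CPM as lowest, median and highest in the 1NMPP1 library, against 1967, 3071 and 5182 CPM in small neurons. In the vehicle library they had 474, 2024 and 5001 CPM, against 1029, 3401 and 7752 CPM. All 6 large neurons of the 1NMPP1 library and 8 of 10 in the vehicle library lay below the median small neuron, with overlap in both. The 2 vehicle cells above it were those of 5599 and 6239 UMIs, at 5001 and 3526 CPM. The lowest 1NMPP1 value, 778 CPM, was 3 UMIs in a cell of 3854 UMIs. Prph came to 1718 and 1818 CPM in large neurons, against 3224 and 3668 CPM in small neurons, a log2 ratio of -0.91 (-0.97 to -0.84) in the 1NMPP1 library and -1.01 (-1.06 to -0.97) in the vehicle library. Every large neuron nevertheless held Prph RNA.

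**Figure D1:**
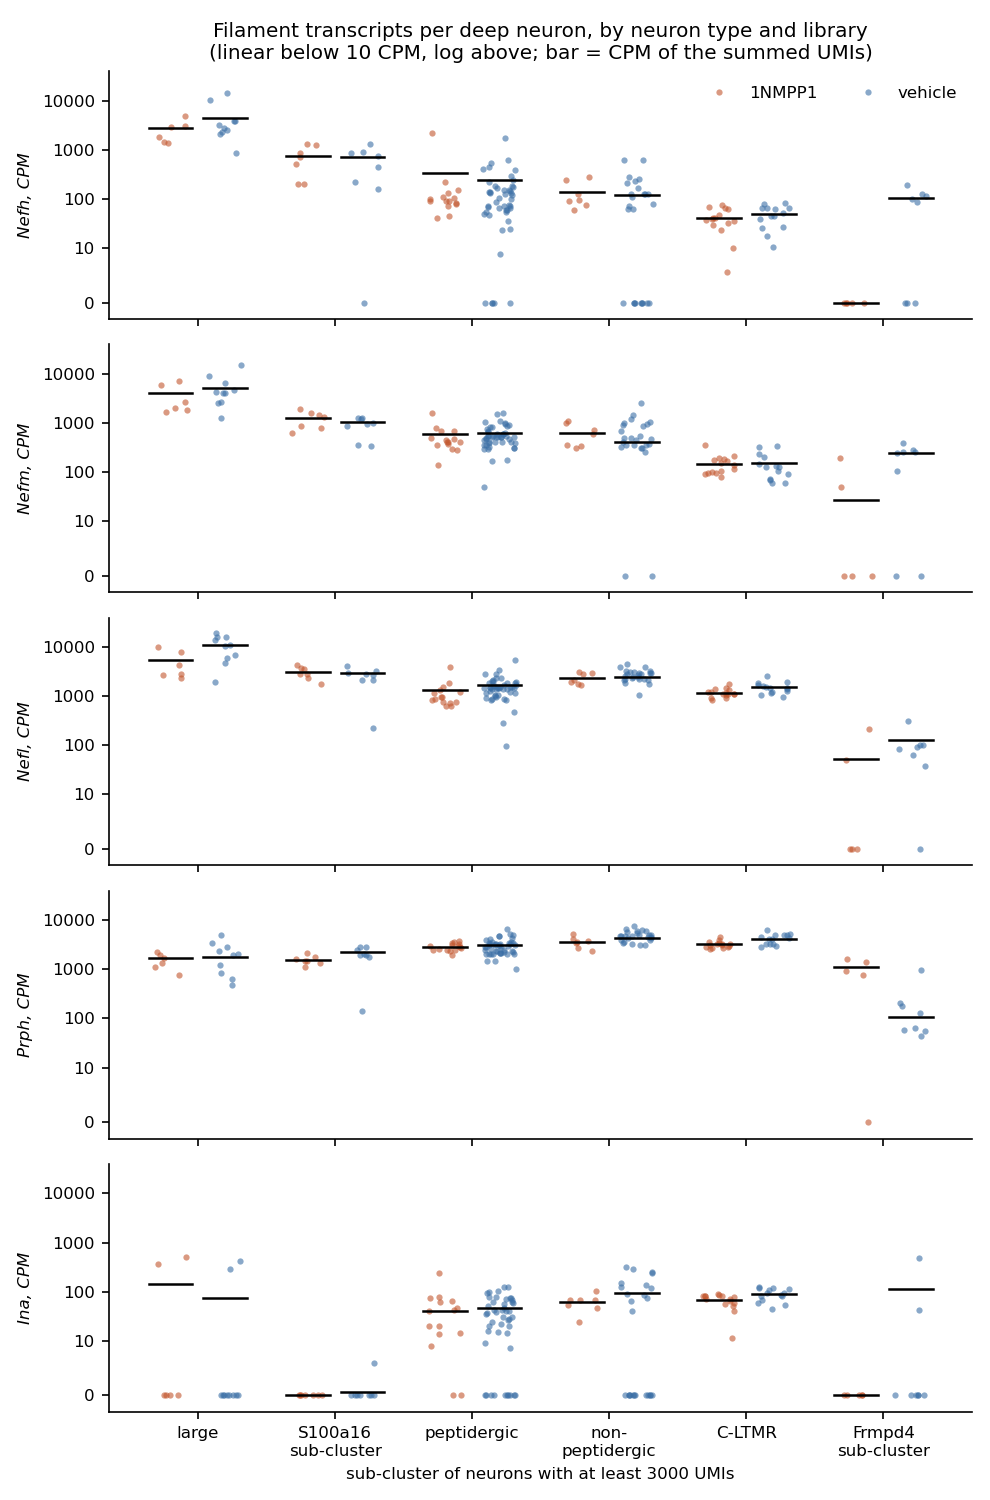
CPM of each filament gene in single deep neurons (vertical axis, linear below 10 CPM and log above) by neuron type, with 1NMPP1 cells left of vehicle cells and a bar for the CPM of the summed UMIs. C-LTMR stands for C-low-threshold mechanoreceptor-like neurons. Nefh is highest in large neurons (2785 and 4486 CPM), Prph is lowest in large neurons among the named types, and Ina is at 0 in most large neurons.

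As a share of the UMIs of all 5 genes, Nefh made up 19.4% and 20.0% in large neurons, 1NMPP1 and vehicle library, against 2.97% and 2.65% in small neurons. Nefm made up 29.0% and 23.4%, against 7.75% and 7.34%, and Nefl 38.7% and 48.2%, against 28.8% and 29.4%. Prph was 12.0% and 8.11% of the filament UMIs in large neurons, against 59.5% and 59.5% in small neurons. These shares do not depend on the total of the other genes, and they count molecules, not protein. Cell by cell, the triplet took at least 72.8% and 67.8% of the filament UMIs in large neurons, against at most 69.4% and 68.7% in small neurons. The groups did not overlap in the 1NMPP1 library, and 2 small neurons reached the lowest large one in the vehicle library. The S100a16 cluster was in neither group, and its triplet shares, 61.5% to 85.6% in the 1NMPP1 library and 51.6% to 80.0% in the vehicle library, reached into the range of large neurons in 4 of 7 and 4 of 8 cells.

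**Figure D2:**
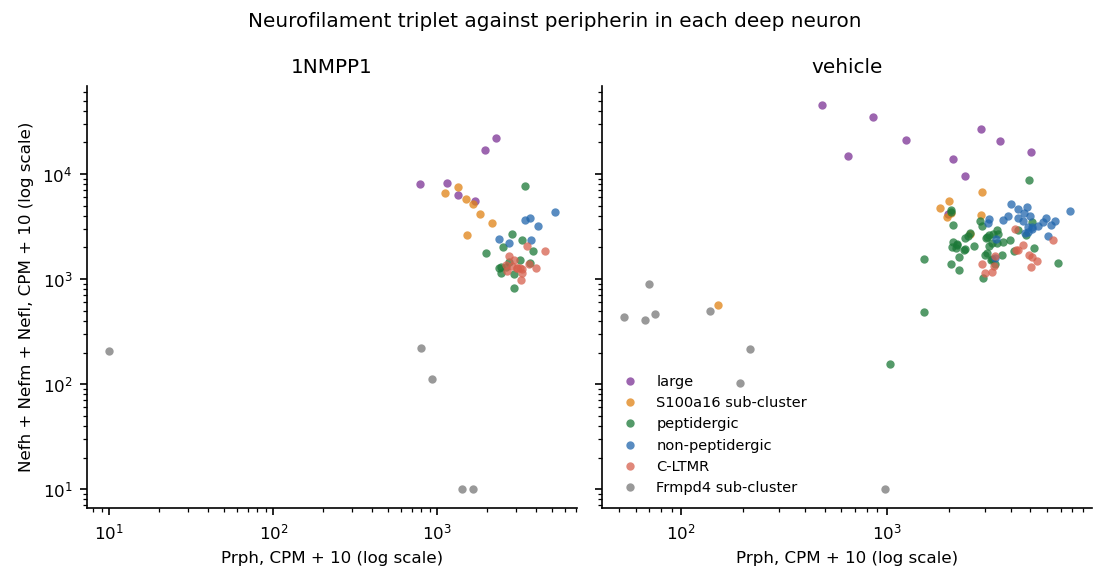
Summed CPM of Nefh, Nefm and Nefl against CPM of Prph in single deep neurons, both as CPM + 10 on log axes, 1NMPP1 library left and vehicle library right. Large neurons lie at high triplet values, with Prph between 778 and 2260 CPM in the 1NMPP1 library and between 474 and 5001 CPM in the vehicle library. Small neurons lie at lower triplet values, with 1 of 37 and 8 of 86 at or above the lowest large neuron (3 of 68 in the vehicle library without the hemoglobin-led cluster).

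Among the types, the order of Nefh ran from large neurons (2785 and 4486 CPM) over the S100a16 cluster (750 and 731 CPM), peptidergic-like neurons (340 and 242 CPM) and non-peptidergic-like neurons (140 and 123 CPM) to C-low-threshold mechanoreceptor-like neurons (40.4 and 49.0 CPM). The quartile ranges of the single-cell values of neighbours stood apart, except between peptidergic-like and non-peptidergic-like neurons in both libraries and between the last pair in the vehicle library (ranges of the vehicle library include the hemoglobin-led cluster). The place of peptidergic-like above non-peptidergic-like neurons in the 1NMPP1 library rests on 1 cell with 542 of 742 Nefh UMIs, without which peptidergic-like neurons had 103 CPM. C-low-threshold mechanoreceptors, unmyelinated touch neurons, had the lowest Nefm of the named types as well, at 149 and 152 CPM. Nefl stood at 2342 and 2528 CPM in non-peptidergic-like neurons, against 1353 and 1663 CPM in peptidergic-like and 1161 and 1513 CPM in C-low-threshold mechanoreceptor-like neurons. The quartile ranges of the last 2 overlapped.

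Prph was highest in non-peptidergic-like neurons (3555 and 4232 CPM), then in C-low-threshold mechanoreceptor-like (3219 and 4130 CPM) and peptidergic-like neurons (2920 and 3138 CPM), with overlapping quartile ranges between neighbours in both libraries. In the triplet genes, the S100a16 cluster lay between large and small neurons. Its Nefh was above that of small neurons, by a log2 ratio of 2.22 and 2.16, and below that of large neurons, large over it being 1.89 and 2.62. Its Prph, 1565 and 2227 CPM, stood below that of large neurons in the 1NMPP1 library (1718 CPM) and above it in the vehicle library (1818 CPM). The quartile ranges of Prph in this cluster overlapped those of large neurons. Its 7 peptidergic markers summed to 6256 and 6218 CPM and its A-fibre markers to 1003 and 784 CPM, so it carried peptidergic marker RNA together with intermediate neurofilament RNA.

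The cluster led by Frmpd4 and Dlg2 was poor in filament RNA. Its 5 genes summed to 1184 CPM in 5 cells of the 1NMPP1 library and 704 CPM in 8 cells of the vehicle library, against 5423 and 6162 CPM in small neurons. Nefh was at 0 UMIs there in the 1NMPP1 library and at 103 CPM in the vehicle library, and Nefl at 53.2 and 129 CPM. Its 15 A-fibre markers summed to 1968 and 11746 CPM, against 4006 and 3379 CPM in large neurons. Its 8 markers of small neurons in general summed to 10972 and 4037 CPM, against 2290 and 1870 CPM in small neurons. Its best name score was for large A-fibre neurons, 2.603, just above 2.596 for C-low-threshold mechanoreceptors. Its sensory neuron markers summed to 5879 and 4916 CPM, against 19206.5 and 19745 CPM in small neurons, and how far it holds whole neurons was not tested.

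Ina, the gene of alpha-internexin, was all or none in large neurons. In the 1NMPP1 library 2 of 6 large neurons held 90 and 74 Ina UMIs (515 and 366 CPM), and in the vehicle library 2 of 10 held 78 and 101 (426 and 294 CPM). Each of the other 12 had 0, among them cells with as many as 530365 UMIs. Small neurons instead held a low, widespread level, 57.3 and 68.9 CPM. Among cells of at least 50000 UMIs, 2 of 5 and 2 of 8 large neurons had an Ina UMI, against 35 of 37 and 59 of 62 small neurons. In the S100a16 cluster 0 of 7 and 1 of 7 such cells had one, and the 1 had a single UMI. The summed ratio of large over small, 1.30 (1.03 to 1.56) in the 1NMPP1 library and 0.09 (-0.15 to 0.32) in the vehicle library, therefore rests on 4 cells.

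The genes whose values were most like those of Nefh across deep neurons were Thy1, a surface glycoprotein of neurons (r = 0.82 over 55 cells and 0.81 over 112 cells), Lgi3 (0.81 and 0.83) and S100b (0.90 and 0.80). Without the large neurons these values were 0.80 and 0.56, 0.70 and 0.44, and 0.85 and 0.57. Nefm was most like Lgi3 (0.73 and 0.71), Thy1 (0.75 and 0.66) and Epn3 (0.71 and 0.66). Nefl was most like Fth1, the ferritin heavy chain (0.86 and 0.83), Slc25a4, a mitochondrial ADP/ATP carrier (0.84 and 0.83), and Cox7c, a respiratory chain subunit (0.85 and 0.83). Prph was most like Serpinb6a (0.77 and 0.81), Selenok (0.77 and 0.83) and Cdc42, a small GTPase (0.74 and 0.80). Between members, Nefh and Nefm correlated at 0.90 and 0.80, Nefh and Nefl at 0.71 and 0.60, and Nefh and Prph at -0.18 and -0.11. The cells of a library share its preparation and differ in depth, so these values describe the cells and carry no test.

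Of 55 partner genes of the filament network, 11 of 52 measured in the 1NMPP1 library and 8 of 53 in the vehicle library were higher by at least 2-fold in large than in small neurons, against 12.2% and 12.2% of all genes. Lower by as much were 6 and 8, against 17.3% and 23.5%. The median log2 ratio of the list was 0.26 and 0.07, against -0.05 and -0.18 over all genes. Proteins of the axon and node of myelinated fibres made up 5 of the 11 and 4 of the 8. The adhesion protein Cntn1 had log2 ratios of 3.17 and 3.57, the nodal sodium channel Scn8a, itself an A-fibre marker used for naming, 2.74 and 3.45, Cntnap1 2.70 and 2.69 and Nfasc 2.37 and 2.87. The small heat shock protein Cryab stood at 3.81 and 2.90.

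Microtubule genes went both ways. Map2 (2.998 and 1.63) and Tuba4a (2.59 and 2.07) were higher in large neurons, while Tubb2b (-3.67 and -4.21), Stmn4 (-2.19 and -3.64) and Tubb2a (-1.10 and -2.39) were lower. Of the other intermediate filament genes, Vim, the vimentin of glia and fibroblasts, was lower in large neurons at -4.17 and -3.45, and Sync at -1.12 and -2.12. Ank3, the ankyrin of axon initial segments and nodes, was lower at -1.52 and -1.69. None of the 9 kinases of the tail repeats and none of the 3 linker genes passed 2-fold in either library.

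Summed together, the shallow barcodes of the neuron clusters were not poor in filament RNA. The 5 genes summed to 5106 CPM in shallow against 6641 CPM in deep neurons of the 1NMPP1 library, a log2 ratio of -0.38 (-0.56 to -0.20). In the vehicle library they summed to 8003 against 8341 CPM, a log2 ratio of -0.06 (-0.12 to -0.00). Shallow barcodes had medians of 710.5 and 776 UMIs, against 193936 and 164476 in deep neurons. No member passed 2-fold in either direction. Of all genes with at least 5 UMIs expected on the smaller side, 2.86% and 3.06% were higher in shallow barcodes by that much, and 13.6% and 10.6% lower. Nefh stood at -0.60 (-1.40 to 0.02) and -0.52 (-0.76 to -0.30), and Prph at -0.76 (-1.10 to -0.45) and -0.11 (-0.21 to -0.01).

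After each cell was thinned to 1000 UMIs, at least 1 filament UMI was found in 12 of 14 shallow barcodes of the 1NMPP1 library (85.7%) and in 91 of 94 of the vehicle library (96.8%), with 40 and 195 shallower ones left out. The shares of deep neurons were 92.7% and 95.5%, and those of all other cell classes 4.99% and 12.6%. Thinned to 500 UMIs, which left no barcode out, the shares were 77.8% and 87.2% in shallow barcodes, 87.3% and 87.5% in deep neurons, and 2.86% and 7.23% in other classes. As a group, the shallow barcodes thus carried filament RNA far above the level of non-neuronal cells of equal depth.

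The shallow barcodes differed in their filament mix by cluster. Leading genes of a cluster were ranked on UMIs summed over its deep and shallow cells, and deep cells held most of these UMIs. Cluster 9 was led by Thy1, Pvalb, the member Nefh and Slc17a7. It held 37 shallow barcodes of the 1NMPP1 library (median 752 UMIs) and 117 of the vehicle library (629 UMIs). There Nefh came to 503 and 1207 CPM, Nefm to 1592 and 1864, Nefl to 2150 and 4342 and Prph to 1089 and 1153 CPM. The triplet thus took the larger part of filament UMIs, with Prph at 20.4% and 13.4% of them. Set against deep large neurons, the 5 genes were lower in cluster 9 by a log2 ratio of -1.43 (-1.64 to -1.22) and -1.38 (-1.49 to -1.28). These sums pool uneven barcodes. A single barcode held 19.9% and 11.2% of the filament UMIs of shallow cluster 9, while no barcode held over 7.51% and 3.17% of all its UMIs. Other barcodes had no filament UMI, among them a barcode of 809 UMIs in the 1NMPP1 library and a barcode of 1107 UMIs in the vehicle library.

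Cluster 11, with Tmem233, Ctxn3 and Cd55 among its leading genes, held 14 and 156 shallow barcodes with medians of 642 and 965.5 UMIs. Prph came to 3453 and 4116 CPM, Nefl to 1225 and 2752 CPM, and Nefh to 0 UMIs in the 1NMPP1 library and 165 CPM in the vehicle library. Its Prph share was 60.8% and 52.1% of filament UMIs, near the 59.5% and 59.5% of small neurons. The 5 genes stood at log2 ratios of -0.23 (-0.67 to 0.15) and 0.096 (0.015 to 0.18) over deep non-peptidergic-like neurons. The member farthest from its deep level in the vehicle library was Nefm, at 0.96 (0.69 to 1.22). The shallow barcodes of cluster 18, whose deep cells are peptidergic-like, numbered 3 and 16, with 13 and 153 filament UMIs. Those of the vehicle library had Nefh at 793 (477 to 1238) CPM and Prph at 33.3% of filament UMIs, against 242 CPM and 54.9% in deep peptidergic-like neurons, on 19 Nefh UMIs.

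Markers of other cells were counted in the shallow barcodes of cluster 9. In the vehicle library its 8 satellite glia markers summed to 8511 CPM, and Col1a1 and Bglap, genes of bone matrix, to 8123 CPM. In the 1NMPP1 library the same sums were 3379 and 0 CPM. Deep large neurons had 460 and 366 CPM of the glia markers and 2.57 and 6.12 CPM of the bone genes, 1NMPP1 and vehicle library. Erythroid markers summed to 2625 and 5204 CPM in shallow cluster 9, against 249 and 258 CPM in deep large neurons, and markers of myelinating Schwann cells to 2095 and 2133 CPM, against 397 and 244 CPM. Of the markers of neuron types, the 7 peptidergic ones summed to 5753 and 2381 CPM in shallow cluster 9, against 384 and 247 CPM in deep large neurons. The 15 A-fibre markers summed to 1955 and 2489 CPM there, against 4006 and 3379 CPM in deep large neurons. The part of RNA of other cells and other neuron types in the filament values of cluster 9 was not tested. Among the partner genes, 2 of 40 in the 1NMPP1 library and 2 of 51 in the vehicle library were higher in shallow than in deep neurons by 2-fold, led by Vim at 1.51 and Cryab at 1.73, against 2.86% and 3.06% of all genes. Lower were 3 and 4, against 13.6% and 10.6% of all genes, led by Tubb2b at -1.72 and Stmn4 at -3.69.

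**Figure D3:**
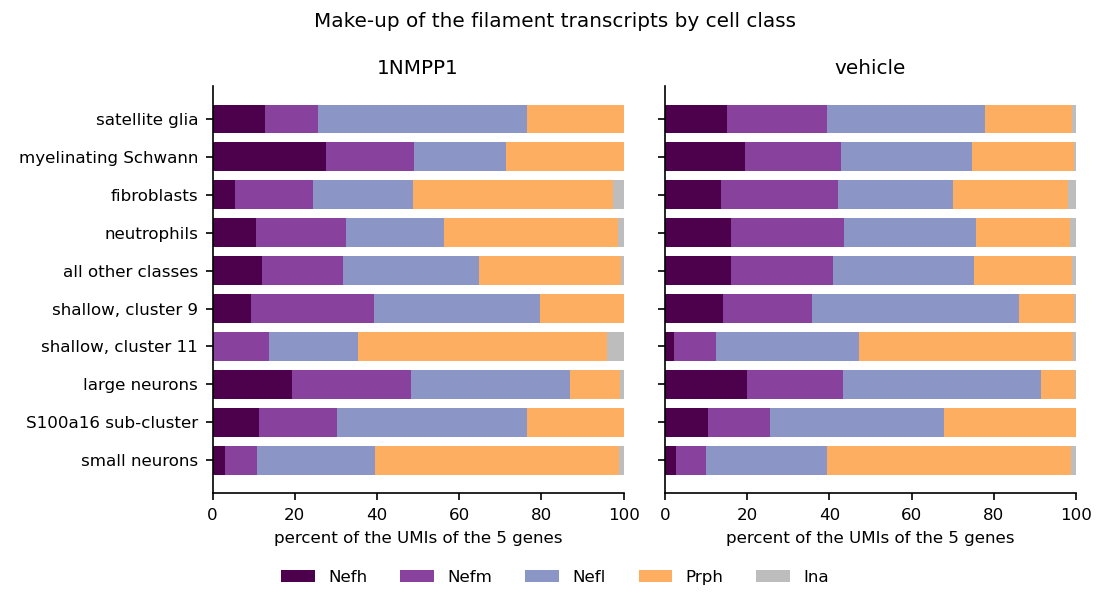
Percent of the UMIs of the 5 filament genes taken by each gene (horizontal bars, 0 to 100%) in other cell classes, shallow barcodes by cluster and deep neuron types, 1NMPP1 library left and vehicle library right. The Prph part of shallow cluster 9 (20.4% and 13.4%) lies between those of large neurons (12.0% and 8.11%) and small neurons (59.5% and 59.5%). That of shallow cluster 11 (60.8% and 52.1%) is near that of small neurons.

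Between libraries, filament RNA was lower in the deep neurons of the 1NMPP1 library than of the vehicle library, by less than 2-fold. The 5 genes summed to 6641 CPM in the 1NMPP1 library and 8341 CPM in the vehicle library, a log2 ratio of -0.33 (-0.34 to -0.32). No member passed 2-fold, as against 4.71% of 15037 genes that were higher and 5.77% that were lower by that much. The log2 ratio was -0.50 (-0.55 to -0.46) for Nefh, -0.21 (-0.24 to -0.17) for Nefm, -0.45 (-0.47 to -0.43) for Nefl, -0.23 (-0.25 to -0.21) for Prph and -0.17 (-0.32 to -0.02) for Ina. Of the partner genes, 0 of 53 were higher by 2-fold and 1 was lower, Nes, with 1 UMI in the 1NMPP1 library and 39 in the vehicle library, a log2 ratio of -3.87 (-9.77 to -1.87). The list had a median log2 ratio of 0.25, against 0.06 over all genes. Within deep neurons called male (17 and 56 cells) the ratio of the 5 genes was -0.17, and within those called female (25 and 11 cells) 0.06, so the direction did not hold in cells called female. There Nefh stood at 2.55 (2.23 to 2.90) and Nefm at 1.16 (1.02 to 1.29), past 2-fold, and Nefl at 0.36, while large neurons were 1 of those 25 cells and 0 of those 11. Sex, animal, library and treatment cannot be told apart with 1 library a group.

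Large neurons had the wider gap. Nefl had 2372, 3649 and 9983 CPM as lowest, median and highest large neuron in the 1NMPP1 library, against 1989, 10882 and 19319 CPM in the vehicle library. All 6 cells of the 1NMPP1 library lay below the vehicle median, and 6 of 10 vehicle cells lay above the highest 1NMPP1 cell, though the ranges overlapped. Among these vehicle cells were those of 5599 and 6239 UMIs, at 11073 and 13784 CPM. The log2 ratio of Nefl was -0.96 (-0.999 to -0.92), -1.30 without the 1NMPP1 cell with the most Nefl UMIs, past 2-fold, -0.61 without the vehicle cell with the most, and -0.95 without both. Nefh stood at -0.69 (-0.74 to -0.63) and Nefm at -0.33 (-0.38 to -0.28), with 4 of 6 cells of the 1NMPP1 library below the vehicle median for each. Prph stood at -0.08 (-0.16 to -0.01). With all cells, no member passed 2-fold in large neurons, where 8.88% of genes were higher and 4.02% lower by that much. A single cell held 36.4% of the Nefh UMIs of large neurons in the 1NMPP1 library and 32.3% in the vehicle library, so each value rests on few cells. Of the partner genes, 4 of 51 were higher by 2-fold in the large neurons of the 1NMPP1 library, Stmn4 (1.16), Tubb2a (1.11), Tuba1a (1.10) and Tuba1b (1.08), all of them microtubule genes. Lower were Vim (-1.46) and the small heat shock proteins Hspb1 (-1.14) and Cryab (-1.08).

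In small neurons the summed filament genes stood at 5423 CPM in the 1NMPP1 library and 6162 CPM in the vehicle library, a log2 ratio of -0.18 (-0.20 to -0.17). Nefh was at -0.02 (-0.12 to 0.09), Nefl at -0.21 (-0.25 to -0.18) and Prph at -0.19 (-0.21 to -0.16), and the single-cell ranges overlapped for every member. Without the hemoglobin-led cluster the 5 genes stood at -0.17 (-0.19 to -0.15). No member passed 2-fold here, where 5.13% of genes were higher and 5.86% lower by that much. In peptidergic-like neurons Nefh stood at 0.49 (0.36 to 0.62), but 1 cell held 73.0% of its Nefh UMIs in the 1NMPP1 library and 1 cell 39.7% in the vehicle library. The ratio was -1.22 without the first, 1.14 without the second and -0.57 without both, so its direction rests on single cells. In the S100a16 cluster the triplet stood at 0.16 (0.11 to 0.21) without the top cell of each library, opposite to large neurons. It was 0.009 (-0.039 to 0.057) without the top 1NMPP1 cell alone. Prph stood at -0.42 (-0.51 to -0.34) there without the top cell of each library. In shallow neurons the 5 genes stood at -0.65 (-0.84 to -0.46), with no member past 2-fold, where 12.5% of genes were higher and 13.1% lower.

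**Figure D4:**
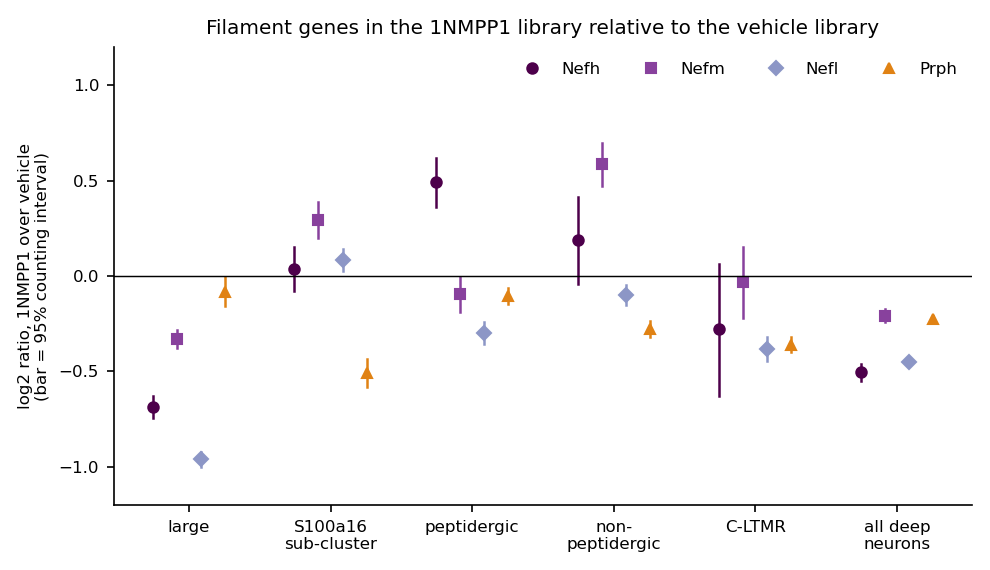
Log2 ratio of 1NMPP1 over vehicle for Nefh, Nefm, Nefl and Prph by neuron type (C-LTMR, C-low-threshold mechanoreceptor-like), points with 95% counting intervals that do not cover differences between animals. The points lie between -0.96, Nefl in large neurons, and 0.58, Nefm in non-peptidergic-like neurons, drawn with the hemoglobin-led cluster and 0.57 without it.

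Cells that are not neurons held little filament RNA, and every class of at least 50 cells had some. All named classes other than neurons, whatever their size, were 1994 cells of the 1NMPP1 library and 2350 of the vehicle library. Over them the 5 genes summed to 41.5 and 97.8 CPM, against 6641 and 8341 CPM in deep neurons. The log2 ratio of other classes over deep neurons was -7.32 (-7.43 to -7.21) and -6.41 (-6.47 to -6.36). Neurons held 98.9% and 97.9% of the filament UMIs of all kept cells. The 1NMPP1 library had 10 classes of at least 50 cells and the vehicle library 13. In the first the sum ran from 24.4 CPM in erythroid-like to 79.0 CPM in myelinating Schwann-like cells. In the second it ran from 44.6 CPM in granulocyte progenitor-like to 181 CPM in myelinating Schwann-like cells. Neutrophil-like cells, which are blood cells, had 60.7 and 123 CPM, between these ends.

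The level in other classes differed between libraries more than the level in neurons. The log2 ratio of 1NMPP1 over vehicle was -1.23 (-1.36 to -1.12) for the 5 genes, -1.65 (-2.01 to -1.32) for Nefh and -0.69 (-0.91 to -0.48) for Prph. Neurons were 5.08% of the kept cells in the 1NMPP1 library, against 14.2% in the vehicle library. Barcodes above the mitochondrial limit, which were left out, numbered 75 in the 1NMPP1 library and 583 in the vehicle library and held 379 and 1144 CPM of filament RNA. The part of these values in the difference was not tested.

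Without the 2 and 8 cells that had at least 10 filament UMIs, the sum in other classes was 40.4 and 94.9 CPM, so those cells held little of it. Satellite glia-like cells, which ensheathe neuronal cell bodies, had 40.1 and 92.3 CPM, near the average of all classes. Myelinating Schwann-like cells, which wrap the axons, had Nefh at 21.8 (14.4 to 31.7) and 35.2 (27.7 to 44.2) CPM, against 5.12 (2.65 to 8.95) and 14.0 (11.7 to 16.7) CPM in satellite glia-like cells. At 1000 UMIs a cell, 7.92% and 21.9% of Schwann-like cells had a filament UMI, against 3.05% and 11.6% of satellite glia-like cells. Nefh was 12.0% and 15.98% of the filament UMIs in other classes, against 8.48% and 9.58% in deep neurons, and Prph 34.7% and 23.9%, against 41.5% and 38.7%. Over classes of at least 50 cells, the Nefh share ran from 2.60% to 27.6% in the 1NMPP1 library, highest in myelinating Schwann-like cells. In the vehicle library it ran from 8.82% to 21.3%, highest in erythroid-like cells. At 1000 UMIs a cell the Nefh share was 12.3% and 17.0% in other classes, against 8.31% and 6.88% in deep neurons. At 500 UMIs a cell it was 8.62% and 15.7%, against 10.3% and 8.59%, the 10.3% resting on 15 Nefh UMIs. The higher Nefh share outside neurons thus held in the 1NMPP1 library at 1000 UMIs but not at 500. Ina stood at 0.24 and 0.89 CPM in other classes.

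**Figure D5:**
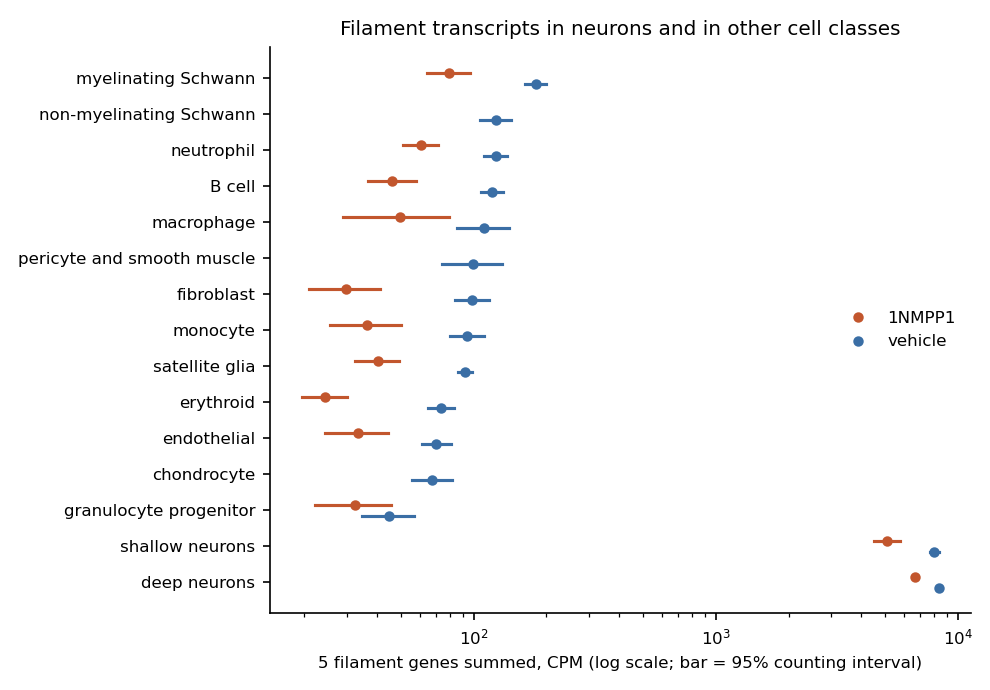
CPM of the 5 filament genes summed (log axis) in each cell class of at least 50 cells, with 95% Poisson intervals, 1NMPP1 and vehicle library, and neurons at the bottom. Classes other than neurons lie between 24.4 and 181 CPM, the vehicle library above the 1NMPP1 library, and deep neurons at 6641 and 8341 CPM.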

How the data were processed

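Single cells of a 1NMPP1 and a vehicle DRG library were read, 1 library a group. The deposited values are unnormalized whole UMI counts. Per the file headers they were made with Cell Ranger 7.2.0. The genome was mm10, per the submitters' processing notes. The sources used here name neither annotation release nor kit chemistry. The members and gene lists were chosen with earlier results of these data known.

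A barcode was kept if it had 200 genes or more and no more than 20% of its UMIs from mitochondrial genes (355 and 393 barcodes, 1NMPP1 and vehicle library, missed the gene minimum and 75 and 583 the mitochondrial limit). The highest Scrublet doublet scores were removed at 0.8% per 1000 barcodes (55 and 108 barcodes). The threshold Scrublet sets itself would have marked 5 and 25. Both libraries were clustered together without the 5 members (2000 variable genes, 30 principal components, 20 neighbours, Leiden resolution 1, Python 3.11.15, scanpy 1.11.5, leidenalg 0.10.2), and clusters were named from 23 marker lists. Deep neurons were clustered again with 15 components and 10 neighbours. After the data were seen, neuron barcodes with over 20% hemoglobin UMIs (2 and 32) were set aside, and deep clusters whose best and second name scored within 0.5 were left unnamed.

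CPM is the summed UMIs of a gene in a class of 1 library, divided by all UMIs of that class there, with no division by gene length, so levels are compared between cells and not between genes, and shares of the filament UMIs count molecules. CPM has exact Poisson intervals, shares exact Clopper-Pearson intervals and log2 ratios (0.5 UMI added to each side) exact conditional intervals. All cover counting error only. A gene is counted as higher or lower past 2-fold. The calculations were tested on simulated counts. Genes named are the members, the 3 with the highest likeness to each member (the lower of the r values of log2(CP10K + 1) in each library, over 12371 genes), marker genes, and the 3 highest and 3 lowest partner genes. Some further partner genes were picked once their values had been seen. The targeted gene is not reported here.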

Additional observations from a re-analysis of the deposited data

Results flagged for a closer look

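Filament RNA was also counted in the growth plate libraries, which no comparison above uses. The 5 genes summed to 1.35 CPM in 11634 cells of the 1NMPP1 library (188 UMIs) and 1.90 CPM in 9380 cells of the vehicle library (194 UMIs), above the floor of 3 UMIs in each library, 0.0216 and 0.0294 CPM. Nefh made up 69.1% and 68.6% of these UMIs, while Nefl was at 0 UMIs in both. In large and small neurons of the ganglia Nefl took between 28.8% and 48.2% of the filament UMIs, so the mix in the growth plate was another one.

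Several members differed between libraries in opposite directions by neuron type; the difference between types was not tested. The log2 ratio of 1NMPP1 over vehicle of Nefh was -0.69 in large and 0.49 in peptidergic-like neurons, the second value resting on single cells. For Nefm it was -0.33 in large and 0.58 in non-peptidergic-like neurons (0.57 without the hemoglobin-led cluster), and 0.50 in the second without the top cell of each library. For Ina it was 0.95 in large neurons, where 2 cells of each library hold all its UMIs, against -0.65 in non-peptidergic-like (-0.67 without that cluster) and -0.42 in C-low-threshold mechanoreceptor-like neurons.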

How the results depend on the processing

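No paired analysis was possible because each group has 1 library. The triplet and Prph in large over small neurons, and the 5 genes in other classes over deep neurons, kept their sign under each alternative run. Ina in large over small neurons of the vehicle library did not, and ran from -0.80 to 0.45. For the triplet in large over small neurons (1NMPP1 library first in each pair), the log2 ratio was 2.18 and 2.91 with no doublets removed, 2.51 and 3.03 without mitochondrial, ribosomal and hemoglobin UMIs, 2.51 and 3.01 with each cell weighed alike, 2.65 and 3.01 thinned to 1000 UMIs, 2.21 and 2.57 with neurons split cell by cell on markers, 2.41 and 2.98 without the deepest cell of each class, and 2.21 and 2.95 with the S100a16 cluster among the small neurons, an alternative added after seeing the data. For Prph it was -1.05 and -0.83 with each cell weighed alike, -0.63 and -0.87 thinned, -0.76 and -0.83 split cell by cell, and -0.76 and -0.95 with the S100a16 cluster. In the vehicle library it was also -0.95 with no doublets removed, -1.06 without the 3 kinds of UMIs and -1.27 without the deepest cells.

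The ratio of shallow over deep neurons was -0.38 in the 1NMPP1 library, negative under 11 of 12 alternatives, and -0.06 in the vehicle library, negative under 7 of 12. In the 1NMPP1 library it was 0.033 thinned to 1000 UMIs, -0.065 thinned to 500 and -1.43 for cluster 9 over large neurons. In the vehicle library it was 0.020 with a mitochondrial limit of 10%, -0.13 with no doublets removed, 0.22 thinned to 1000 UMIs, 0.081 thinned to 500, 0.10 with at least 500 genes a cell, -0.19 with a limit of 2000 UMIs, -1.38 for cluster 9 over large neurons and 0.085 for cluster 11 over non-peptidergic-like neurons. The 500-UMI and cluster settings, and values without the hemoglobin-led cluster, were added after seeing the data.

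For other classes over deep neurons the ratio was -7.06 and -6.27 without the 3 kinds of UMIs, -6.53 and -5.53 with each cell weighed alike, and -6.65 and -5.60 thinned. For 1NMPP1 over vehicle in deep neurons it was -0.37 with no doublets removed, -0.36 without the 3 kinds of UMIs, -0.36 with each cell weighed alike, -0.43 thinned, -0.17 within cells called male, 0.061 within cells called female, -0.64 within large and -0.18 within small neurons, -0.22 without the deepest cell of each library and -0.31 with hemoglobin-rich barcodes kept. Thinned, Prph took 14.1% and 9.42% of filament UMIs in large and 61.9% and 60.2% in small neurons. At 500 UMIs the share of cells with a filament UMI was 2.86% and 7.23% in other classes, and in the vehicle library 87.2% in shallow and 87.5% in deep neurons. Counts of partner genes stayed within 1.5 times in large over small neurons. Few large neurons and 1 library a group limit every value.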

Other observations

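After the values were seen, the 4 large neurons that held Ina were compared with the others. They had Pvalb at 1681 to 3212 CPM, Runx3, a transcription factor of proprioceptive neurons, at 92.8 to 157 CPM, and Kcnip2, a potassium channel partner, at 84.4 to 203 CPM. Of the 12 large neurons without Ina, 1 vehicle cell had Pvalb at 2434 CPM and the others at most 504 CPM, and 2 vehicle cells had Runx3 at 117 and 118 CPM, inside the range of the first 4. Kcnip2 was at most 12.98 CPM in the 9 of these 12 with at least 154084 UMIs. The other 3 had at most 6239 UMIs and none of the 3 genes. With 4 cells from 2 libraries this is a description of those cells.

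Ina was most like Rgmb across deep neurons (r = 0.42 and 0.48). Nt5c2, whose exons overlap those of Ina on the opposite strand, ranked 4 with 0.37 and 0.37, and how much of this comes from shared molecules was not tested.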
